A study of Homo sapiens with 6 samples.

Results

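The genes described here are 10 regulators of the caudal body axis and of presomitic mesoderm: the homeobox genes CDX1, CDX2, CDX4, EVX1 and NKX1-2, the basic helix-loop-helix (bHLH) genes MSGN1 and HES7, and the Notch pathway genes DLL1, DLL3 and LFNG. They were taken by symbol, 10 of 37803 symbols found once in both deposited tables, and were chosen by the difference in FPKM between SNAI1-deleted and wild-type cells in these same libraries. The differences of these genes from wild type are therefore given as a description, with no test. The RNA was sequenced from the human embryonic stem cell line H1 on day 2 of hematopoietic differentiation in activin A and BMP4 (40 and 50 ng/ml by the labels, and the other way round in the study's methods). There were 2 libraries of cells without the deletion (WT) and 2 of each knockout group, named SNAI1_KO_1 and SNAI1_KO_2 after the first number in their titles. All 6 libraries received the same factors. The study made its knockout cells with CRISPR/Cas9 and describes frameshift mutations. Which line a title number stands for, and whether libraries of 1 group came from separate cultures, is not given in the sources used here, so p-values measure the spread between these samples, which may be technical.

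CDX genes encode caudal-type homeobox factors that set posterior identity in the embryo, in large part by acting on HOX genes. They are induced by WNT and FGF signals in the posterior primitive streak and tailbud, where EVX1 and NKX1-2 are also expressed. Cells that leave this region become presomitic mesoderm under MSGN1 and TBX6, and the tissue is then cut into somites by a clock of oscillating Notch genes that includes HES7, LFNG and the DLL genes. CDX2 is also known from trophoblast and, with CDX1, from the intestine.

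Values are FPKM, read fragments divided by transcript length and library total, and so can be set against each other between genes. Each table holds 1 library of every group and was normalized on its own, so knockout and WT libraries were compared within a table. FPKM summed to between 603399 and 633851 per library. Absolute depth is unknown, and the depth of a knockout library relative to the WT library of its table was estimated at 0.877 to 1.11. SNAI1 itself was at 37.1 and 36.4 FPKM in WT and between 47.8 and 68.6 in the libraries labelled as knockout. A frameshift can leave the transcript in place, so this level does not check the labels, and directions are given for the libraries under the labels they carry.

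Among the caudal homeobox genes, CDX1 and CDX2 were higher in every library labelled as knockout, and CDX4 stayed low throughout. CDX1 was at 1.07 and 2.15 FPKM in WT, first and second table in that order here and for every gene that follows. It was at 22.0 and 19.7 in SNAI1_KO_1 and at 21.0 and 24.9 in SNAI1_KO_2. The lowest knockout library thus lay far above the highest WT library, and the ratio to WT of the same table was 20.6 and 9.18 for SNAI1_KO_1 and 19.6 and 11.6 for SNAI1_KO_2. The fitted log2 difference of CDX1 was 3.16 ± 0.16 (SE) on the log2(FPKM + 1) scale, the largest of the 10 genes. As the RNA was taken from whole cultures, a larger number of CDX1-expressing cells and more CDX1 RNA per cell cannot be told apart, here and in all results that follow.

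CDX2 was at 0.822 and 1.60 FPKM in WT, at 8.49 and 5.08 in SNAI1_KO_1 and at 6.92 and 10.6 in SNAI1_KO_2. The groups did not overlap, with a log2 difference of 1.97 ± 0.27 (SE). The knockout groups stood in opposite order in the 2 tables. CDX4 was at 0.572 and 0.269 FPKM in WT, at 0.558 and 0.793 in SNAI1_KO_1 and at 0.963 and 0.485 in SNAI1_KO_2. Its groups overlapped, 1 of the 4 within-table differences was below 0, and it fell under the filter on low values, so no difference was fitted. In WT the mean levels of CDX1 and CDX2 were 1.61 ± 0.76 and 1.21 ± 0.55 FPKM (SD over the 2 tables, n = 2 each). In each of the 6 libraries, WT included, CDX1 exceeded CDX2 and CDX2 exceeded CDX4. CDX1 made up 43.5% to 53.5% of the summed FPKM of the CDX genes in WT and 69.3% to 77.1% in the knockout libraries.

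EVX1, an even-skipped-type homeobox gene of the posterior streak, was already well expressed in WT. It was at 12.1 and 38.9 FPKM in WT, at 31.7 and 54.1 in SNAI1_KO_1 and at 31.3 and 66.1 in SNAI1_KO_2. Within each table both knockout libraries lay above WT, but WT of the second table lay above both knockout libraries of the first, so the groups overlapped across tables. The ratio to WT was 2.62 and 1.39 for SNAI1_KO_1 and 2.59 and 1.70 for SNAI1_KO_2. The log2 difference was 0.96 ± 0.17 (SE), and it was 0.61 without WT of the first table and 1.31 without WT of the second. An antisense gene, EVX1-AS, overlaps EVX1 on the opposite strand, and whether the counting used strand is not given in the sources used here, so the reads of these genes may not be told apart. EVX1-AS was at 3.31 and 9.95 FPKM in WT and between 6.32 and 14.3 in the knockout libraries.

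NKX1-2, a homeobox gene of the caudal epiblast, was at 16.6 and 23.0 FPKM in WT, at 49.3 and 39.0 in SNAI1_KO_1 and at 41.8 and 46.5 in SNAI1_KO_2. All 4 knockout libraries lay above both WT libraries. The log2 difference was 1.13 ± 0.16 (SE). A transcript on the opposite strand, AL445237.1, overlaps it and did not exceed 1.14 FPKM in any library.

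**Figure D1:**
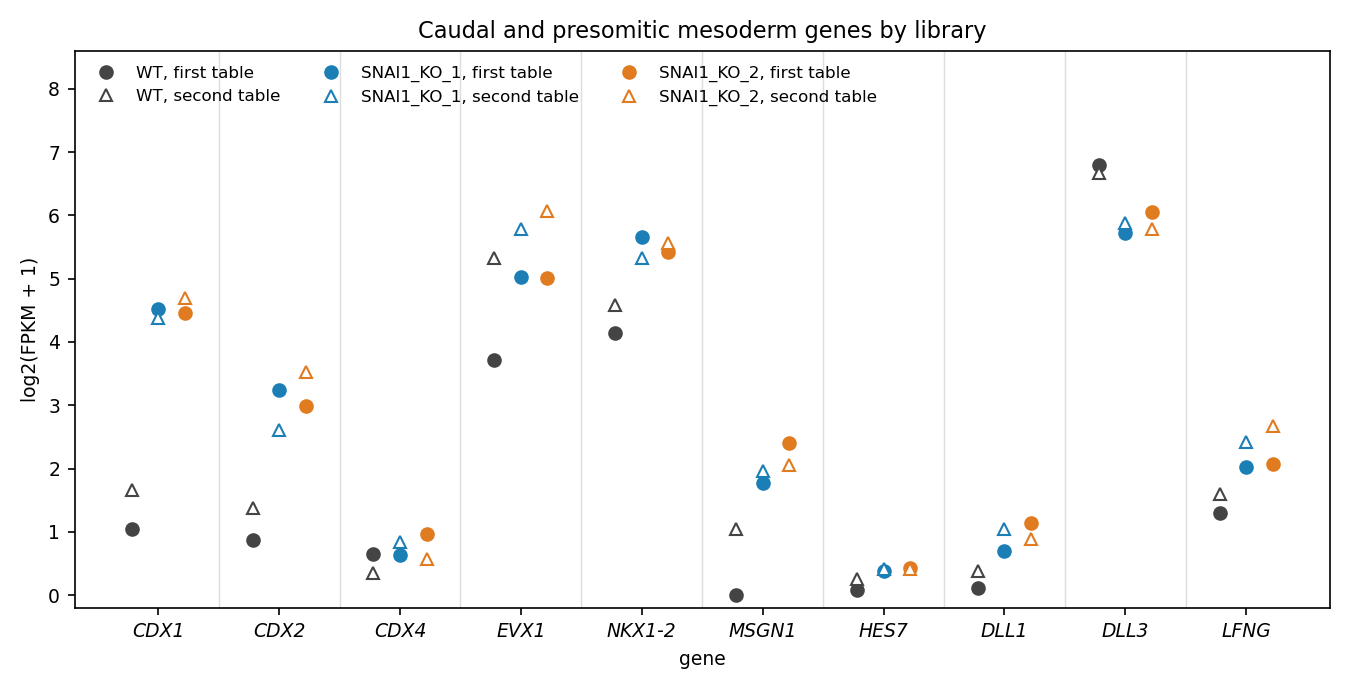
Level of each of the 10 genes in each of the 6 libraries, as log2(FPKM + 1), with groups in colour, filled circles for the first table and open triangles for the second. CDX1 and CDX2 of the knockout libraries sit well above WT, CDX4 and HES7 stay near the floor, and DLL3 is the gene whose knockout libraries sit below WT.

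MSGN1, the bHLH factor that commits cells to presomitic mesoderm, was at or near the floor in WT. WT of the first table listed it at 0, and WT of the second had 1.07 FPKM. It was at 2.41 and 2.87 in SNAI1_KO_1 and at 4.31 and 3.14 in SNAI1_KO_2. All 4 knockout libraries lay above both WT libraries, and in the second table the ratio to WT was 2.68 and 2.93. The log2 difference was 1.52 ± 0.29 (SE), and it was 0.95 without WT of the first table and 2.09 without WT of the second. MSGN1 passed the filter on low values through its knockout libraries, since its WT mean was 0.536 FPKM.

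HES7, a bHLH repressor of the segmentation clock, was the lowest of the 10 genes. It was at 0.0598 and 0.191 FPKM in WT, at 0.305 and 0.327 in SNAI1_KO_1 and at 0.348 and 0.334 in SNAI1_KO_2. The groups did not overlap, yet every value was under 0.35 FPKM, the gene was not fitted, and the counting error at this level is unknown.

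To show what the promoters of these genes hold, RefSeq windows of 300 bases (250 before to 50 after a start, GRCh38.p14) were matched for 7 of the 10 genes, with 8 windows in all. CDX1, DLL1 and DLL3 had no entry. Motifs were searched on both strands by their letters: CAGGTG, the E-box read by SNAI factors, CTTTGA, the core of the TCF/LEF site of the WNT pathway, TTTATG for CDX factors, TCACAC for T-box factors and TGGGAA for RBPJ of the Notch pathway. CAGGTG was in 4 of the 8 windows (CDX4, EVX1, MSGN1 and 1 of 2 LFNG windows), against 20.6% of 35116 windows over all genes. CTTTGA was in 3 of the 8 (CDX2, CDX4 and MSGN1; 12.9% of all), TTTATG in MSGN1 only (10.6%), TCACAC in EVX1 and LFNG (12%) and TGGGAA in both LFNG windows and MSGN1 (24%). The windows of NKX1-2 and HES7 held none of these letters. A match is a description of the sequence and no evidence of binding. The 250 bases before the start are shown for the 3 genes whose match to CAGGTG lies there, on the plus strand with every match in capitals. That of MSGN1 lies at chr2:17816210-17816459, that of EVX1 at chr7:27242552-27242801 and the second LFNG start at chr7:2517613-2517862.
MSGN1: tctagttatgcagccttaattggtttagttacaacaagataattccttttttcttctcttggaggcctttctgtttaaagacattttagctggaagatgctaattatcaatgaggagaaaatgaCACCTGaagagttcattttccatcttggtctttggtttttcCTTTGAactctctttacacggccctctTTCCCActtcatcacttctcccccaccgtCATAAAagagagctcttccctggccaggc
EVX1: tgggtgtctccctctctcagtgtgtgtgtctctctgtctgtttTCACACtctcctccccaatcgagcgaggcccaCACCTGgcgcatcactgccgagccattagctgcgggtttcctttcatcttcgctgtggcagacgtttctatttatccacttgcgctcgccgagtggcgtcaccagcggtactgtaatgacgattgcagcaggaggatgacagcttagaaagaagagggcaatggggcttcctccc
LFNG: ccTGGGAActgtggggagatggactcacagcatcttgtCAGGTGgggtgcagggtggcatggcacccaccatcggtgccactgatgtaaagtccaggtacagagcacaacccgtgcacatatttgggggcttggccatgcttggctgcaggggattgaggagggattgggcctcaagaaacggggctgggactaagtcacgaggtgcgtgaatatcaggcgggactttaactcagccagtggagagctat

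In the MSGN1 stretch the matches, counted from the 5′ end, start at 125 (CACCTG, the E-box on the other strand), 166 (CTTTGA), 193 (TTCCCA, the RBPJ letters on the other strand) and 222 (CATAAA, the CDX letters on the other strand). No match overlaps another. In EVX1 they start at 44 (TCACAC) and 76 (CACCTG), and in LFNG at 3 (TGGGAA) and 39 (CAGGTG).

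Of the Notch genes, the ligand genes DLL1 and DLL3 moved in opposite directions. DLL1, which activates Notch on neighbouring cells, was at 0.0869 and 0.30 FPKM in WT, at 0.630 and 1.07 in SNAI1_KO_1 and at 1.19 and 0.859 in SNAI1_KO_2. All 4 knockout libraries lay above both WT libraries, but the gene was under the filter on low values and was not fitted. It is overlapped on the opposite strand by FAM120B, which was between 1.83 and 2.80 FPKM in all 6 libraries. A long noncoding RNA gene, AL078605.1, overlaps it on the same strand. The level of AL078605.1 was not examined, so its reads and those of DLL1 may not be told apart.

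DLL3, a divergent homolog that acts inside the cell and is known to oppose Notch rather than to activate it on neighbours, was the most abundant of the 10 genes. It was at 109.8 and 100.9 FPKM in WT, at 51.9 and 57.9 in SNAI1_KO_1 and at 65.4 and 54.1 in SNAI1_KO_2. It was the only one of the 10 genes below WT in all 4 knockout libraries, at 0.473 to 0.596 of the WT level in the same table. The log2 difference was -0.87 ± 0.093 (SE). Over the 5 Notch ligand genes (DLL1, DLL3, DLL4, JAG1 and JAG2), DLL3 took 93.1% to 95.9% of the summed FPKM in WT and 77.5% to 84.8% in the knockout libraries. The other 4 together summed to 4.73 and 7.49 FPKM in WT and to between 11.7 and 15.7 in the knockout libraries.

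LFNG, the fringe glycosyltransferase that modifies Notch receptors and oscillates with the clock, was at 1.46 and 2.02 FPKM in WT, at 3.05 and 4.34 in SNAI1_KO_1 and at 3.22 and 5.40 in SNAI1_KO_2. The groups did not overlap, and the ratio to WT was between 2.09 and 2.67 in all 4 comparisons, the most even of the genes with such a ratio above 1 in both tables. The log2 difference was 0.85 ± 0.12 (SE). Of its paralogs, RFNG was far more abundant, between 16.9 and 27.9 FPKM and did not pass (log2 difference 0.05, adjusted p 0.689 by limma). MFNG was at 0.0714 and 0.116 FPKM in WT and between 0.357 and 1.31 in the knockout libraries and was not fitted. LFNG thus made up 7.43% and 7.68% of the summed fringe FPKM in WT and 12.9% to 17.5% in the knockout libraries.

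**Figure D2:**
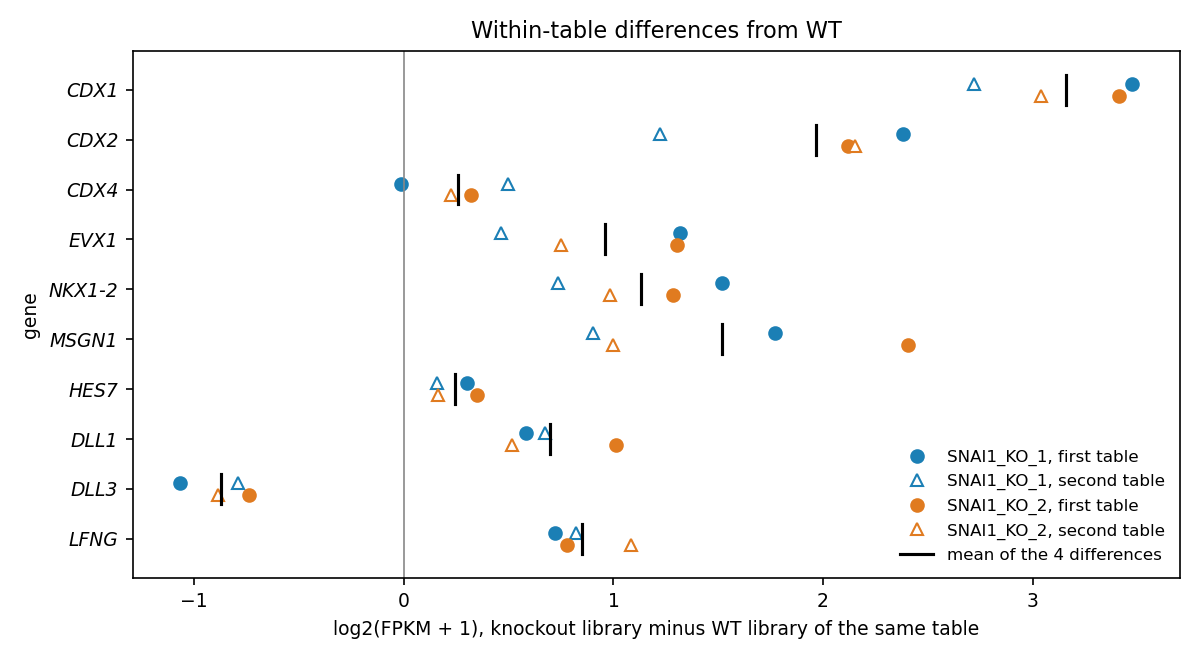
Difference in log2(FPKM + 1) between each knockout library and the WT library of the same table (horizontal axis) for each of the 10 genes, with a black line at the mean of the 4 differences, which share the WT libraries. All 4 points lie above 0 for 8 genes and below 0 for DLL3, while 1 of the 4 for CDX4 lies just under 0, and points of the first table lie farther from 0 than those of the second for CDX1, EVX1, NKX1-2, MSGN1 and HES7.

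Set side by side, 8 of the 10 genes were higher in all 4 within-table differences, 1 was lower in all 4 and 1 was mixed. Over all 37803 symbols, 14.4% were higher in all 4 and 17.9% lower, and over genes that passed the filter on low values 26.2% and 35.1%. The groups did not overlap for 8 genes, with DLL3 below and 7 above WT, against 16.9% of filtered genes above and 17.1% below. HES7 and DLL1, among those 7, were under that filter. Of the 10 genes, 7 reached the mean of 1 FPKM that it asks for, MSGN1 among them through its knockout libraries. As the genes were chosen by the difference from WT, no count of them past a p threshold in that contrast is given. With a pseudocount of 10 in place of 1, which damps low genes, the log2 difference was 1.46 for CDX1, 0.66 for CDX2, 0.32 for MSGN1 and 0.25 for LFNG, and with 0.1 it was 3.23 for MSGN1. Over all genes tested with limma, 31.3% of 13909 passed an adjusted p of 0.05 with both knockout groups set against WT (15.8% higher and 15.4% lower). With SNAI1_KO_1 alone 23.9% passed (13% higher, 10.9% lower), and with SNAI1_KO_2 alone 25.5% (13.5% higher, 12% lower).

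A comparison that the choice of genes did not use is that between the knockout groups. None of the 7 fitted genes differed (0 called; adjusted p of 0.9996 for each by limma), and 0 had an unadjusted p under 0.05, where the smallest was 0.309. Over all genes tested 0 passed as well (0%), with 521 at an unadjusted p under 0.05. The differences, SNAI1_KO_2 minus SNAI1_KO_1, ran from 0.01 ± 0.18 (SE) for NKX1-2 to 0.37 ± 0.34 for MSGN1 on the log2 scale, and that of CDX2 was 0.33 ± 0.31. With 2 libraries a group, a difference has to be several times its error to pass over 13909 genes. The lack of calls therefore does not show that the knockout groups were alike.

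In WT the levels of the 10 genes differed widely. DLL3, at 105.3 ± 6.28 FPKM (SD, n = 2), lay above 97.7% of all symbols, and HES7, at 0.125 ± 0.093, above 47.1%. EVX1 at 25.5 ± 19.0 and NKX1-2 at 19.8 ± 4.58 FPKM followed DLL3 and did not differ beyond their spread. LFNG, CDX1 and CDX2 came next, between 1.21 and 1.74 FPKM on average, with CDX1 above CDX2 in both tables. Below these, MSGN1, CDX4, DLL1 and HES7 had WT means under 0.54 FPKM. In the knockout libraries CDX1, at a mean of 21.9 FPKM, had moved to the level that EVX1 and NKX1-2 had in WT.

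The genes that act with these in the tailbud were listed next: 24 genes of the streak, of FGF and WNT signals and of WNT feedback. The list was written with results of these data known. Of the 19 genes tested, 8 were higher and 3 lower at an adjusted p under 0.05 by limma and 8 did not pass, against 15.8% higher and 15.4% lower over all genes tested. The median log2 difference was 0.31, against -0.05 over all genes. Without the table as a block 3 passed (TBXT, FGF17 and FGF4), and 7 passed without WT of the second table. TBXT (listed as T), the T-box factor of streak and tailbud that acts upstream of MSGN1, was at 17.8 and 38.7 FPKM in WT and between 129.6 and 251.3 in the knockout libraries. Its log2 difference was 2.72 ± 0.080 (SE; adjusted p 0.000142 by limma). FGF17 and FGF4, ligands of the posterior streak, rose by 2.13 ± 0.18 and 2.32 ± 0.15 on the log2 scale (adjusted p 0.00132 and 0.000652 by limma). FGF17 went from 28.4 and 54.4 FPKM in WT to between 158.7 and 225.1, and FGF4 from 0.918 and 0.865 to between 6.65 and 10.5. Like MSGN1, FGF4 passed the filter on low values through its knockout libraries, since its WT mean was 0.891 FPKM. FGF8, of the same family and region, fell by 0.69 on the log2 scale (adjusted p 0.00178 by limma), from 26.3 and 22.6 FPKM to between 12.2 and 17.9.

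On the WNT side, WNT5B rose by 1.58 ± 0.21 and NOTUM, a secreted WNT feedback inhibitor, by 1.09 ± 0.068 on the log2 scale (adjusted p 0.00537 and 0.000546 by limma). SP5, a direct WNT target in the streak, rose by 0.91 ± 0.12 (adjusted p 0.00462 by limma) and, like EVX1, differed strongly between tables, at 41.8 and 129.0 FPKM in WT. The streak factor MIXL1 and the retinoic acid hydroxylase CYP26A1, the most abundant genes of the list, did not pass. Their log2 differences were -0.11 ± 0.059 (adjusted p 0.205 by limma) and 0.04 ± 0.13 (adjusted p 0.830). AXIN2, a general WNT target, had a log2 difference of 0.04. WNT3 and TCF7 rose by 0.62 and 0.31 (adjusted p 0.0041 and 0.0394 by limma). Elsewhere in the list GDF11 fell by 0.50 (adjusted p 0.0243 by limma). The calls of WNT3, TCF7 and GDF11 were lost without the table as a block. NKD1, another WNT feedback inhibitor, fell by 0.31 (adjusted p 0.024 by limma), a call lost without any 1 library other than SNAI1_KO_1 of the first table (adjusted p 0.0640 to 0.169).

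Among 39 genes of segmentation, Notch signalling and early somites, listed in the same way, 24 were tested, of which 11 were higher and 5 lower by limma and 8 did not pass, against 15.8% higher and 15.4% lower over all genes tested. The median log2 difference was 0.08, against -0.05 over all genes. Without the block 2 passed (MESP2 and EPHA4, both lower), and 6 passed without WT of the first table, 5 without WT of the second and 10 without SNAI1_KO_2 of the second. TBX6, the T-box partner of MSGN1 in presomitic mesoderm, was between 13.7 and 17.3 FPKM in all 6 libraries, with a log2 difference of 0.08 ± 0.086 (adjusted p 0.524 by limma). MESP2, the bHLH factor that marks the next segment border, fell by 1.52 on the log2 scale (adjusted p 0.0012 by limma), from 25.8 and 29.3 FPKM in WT to between 6.68 and 10.8. Its neighbour MESP1, of early mesoderm, fell by 0.43 (adjusted p 0.00569 by limma), and EPHA4, an Eph receptor of segment borders, by 0.79 (adjusted p 0.00263). PCDH19 in the same list passed the filter on low values through its knockout libraries, with a WT mean of 0.692 FPKM. EFNB2 and PCDH19 rose by 0.48 and 0.58 (adjusted p 0.0106 and 0.0352 by limma). Neither of these calls held on leaving out each library. The call of MESP1 was lost without WT of either table (adjusted p 0.0612 and 0.0533 by limma).

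Of the Notch pathway genes in that list, the ligands JAG1 and JAG2 rose by 0.86 ± 0.10 and 0.98 ± 0.10 on the log2 scale (adjusted p 0.00358 and 0.00227 by limma). The receptors NOTCH1 and NOTCH3 rose by 0.45 and 0.34 (adjusted p 0.0135 and 0.0134 by limma). The NOTCH1 call was lost without any 1 library of the second table, with adjusted p of 0.111 for WT, 0.0614 for SNAI1_KO_1 and 0.0616 for SNAI1_KO_2. That of NOTCH3 was lost without WT of either table (0.0865 and 0.0995), SNAI1_KO_1 of the first (0.0545) or SNAI1_KO_2 of the second (0.0529). RBPJ, the DNA-binding factor of the pathway, fell by 0.39 (adjusted p 0.0102 by limma), a call lost without WT of either table (0.0890 and 0.0583). The Notch target HES1 and the FGF feedback inhibitor SPRY4 did not pass (adjusted p 0.295 and 0.958 by limma). Of other genes of these kinds, the Notch targets NRARP and HES4 rose by 0.66 and 0.43 (adjusted p 0.00795 and 0.0258 by limma) and HEY2 fell by 0.38 (0.0394). The call of NRARP was lost without WT of either table (0.0519 and 0.0802), and those of HES4 and HEY2 on leaving out any 1 of the 6 libraries (0.0601 to 0.139 and 0.0720 to 0.200). The FGF feedback genes SPRY2 and DUSP6 rose by 0.53 and 0.77 (adjusted p 0.00415 and 0.0386 by limma). SPRY2 kept its call without each library, and DUSP6 lost it without WT of either table (0.273 and 0.0801) or SNAI1_KO_2 of either (0.0859 and 0.125). Of genes known from somites, MEOX1, MEOX2, UNCX, PAX1 and PAX3 did not exceed 0.151 FPKM in any library, FOXC2 did not exceed 0.701, and TCF15 was between 1.21 and 4.31 and did not pass. FOXC1, also of other early mesoderm, rose by 0.57 (adjusted p 0.0054 by limma), a call lost without WT of either table (0.0547 and 0.0514). DLL4 did not exceed 0.081, and HES5 was listed at 0 throughout.

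**Figure D3:**
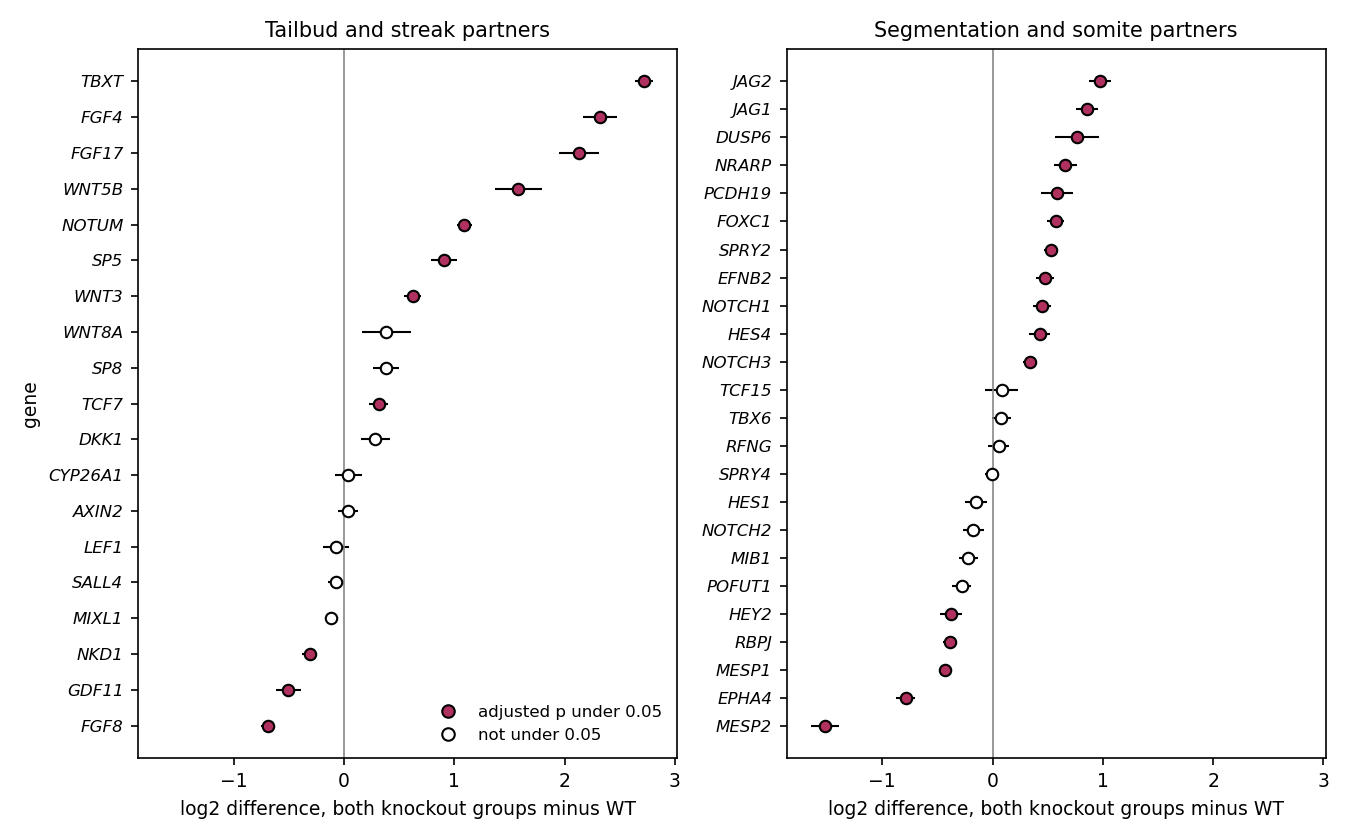
Fitted log2 difference of both knockout groups from WT (horizontal axis, log2(FPKM + 1) scale) with its SE for the 19 tailbud and streak genes and the 24 segmentation and somite genes tested, filled where the adjusted p by limma was under 0.05. TBXT, FGF4 and FGF17 lie farthest to the right at 2.72, 2.32 and 2.13, and MESP2 farthest to the left at -1.52.

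Since CDX factors are known to act on HOX genes of the trunk, the 15 HOX genes of groups 5 to 9 were set beside them. Their summed level was 34.0 and 39.6 FPKM in WT and between 2.72 and 6.05 in the knockout libraries, the opposite order to the summed CDX level, which was 2.47 and 4.02 in WT and between 25.6 and 35.9. Most of the HOX sum was HOXB6, at 25.2 and 32.0 FPKM in WT and between 1.74 and 3.41 in the knockout libraries. Its log2 difference was -3.04 ± 0.21 (SE; adjusted p 0.00073 by limma). HOXB9 fell by 0.66 (adjusted p 0.0331 by limma), a call lost without WT of either table (0.148 and 0.172), without SNAI1_KO_1 of the second (0.0774) and without SNAI1_KO_2 of either (0.0873 and 0.0518). HOXB8, under the filter, was at 2.14 and 1.77 FPKM in WT and at most 0.062 in the knockout libraries. The other 12 genes were under the filter too, and 10 of the 15 were under 1 FPKM in every library. Overlaps between transcripts of neighbouring HOXB genes were not examined.

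**Figure D4:**
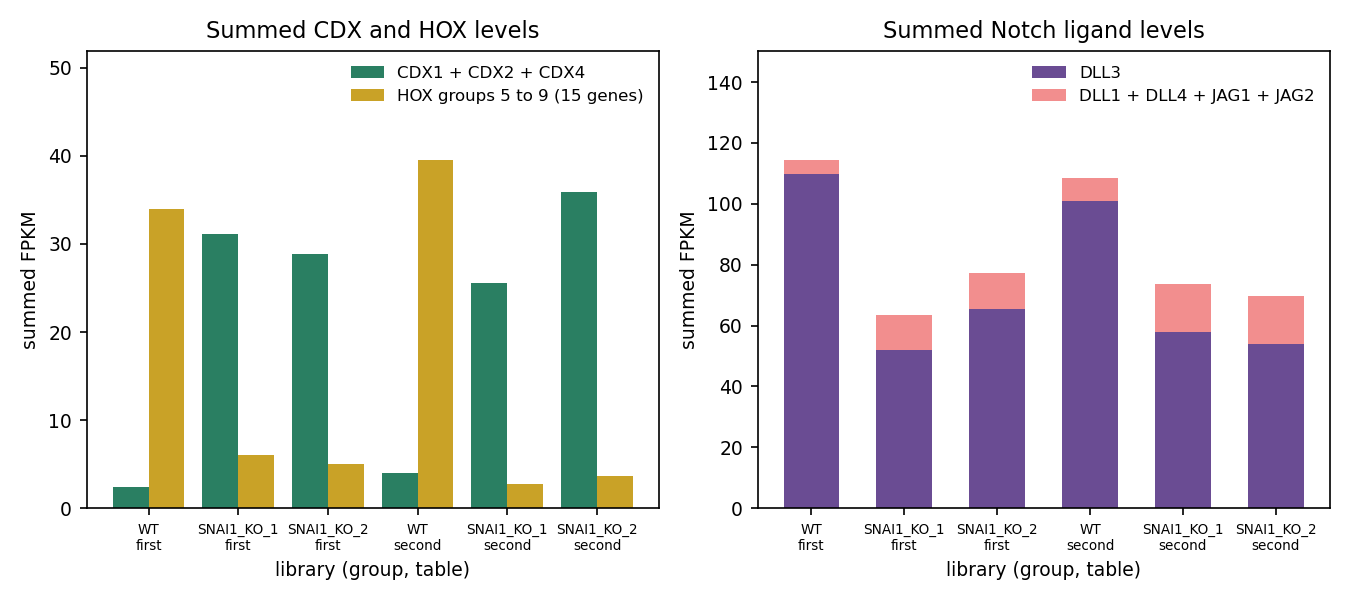
Summed FPKM of the 3 CDX genes and of 15 HOX genes of groups 5 to 9 (left) and of the Notch ligand genes split into DLL3 and the other 4 (right), for each library. In WT the CDX sum is at most 4.02 and the HOX sum at least 34.0 FPKM, and in every knockout library the CDX bar stands above the HOX bar.

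Markers of other cell types in which some of these genes are known moved as follows, and their part in the differences above was not tested. The marker lists, here and in the next paragraph, were written with results of these data known. Whether calls of marker genes held in the alternative fits was not examined. Of 12 amnion and trophoblast markers, 2 were higher and 2 lower of 6 tested by limma. HAND1 and GATA3 fell, while TFAP2A and GABRP rose. GATA3 was at 23.1 and 37.3 FPKM in WT and between 11.6 and 24.0 in the knockout libraries, so its groups overlapped across tables. GABRP passed the filter on low values through its knockout libraries, with a WT mean of 0.095 FPKM. The summed level of the 12 was 272.5 to 288.0 FPKM in WT and 108.3 to 128.2 in the knockout libraries. This sum mainly follows HAND1, which was at 241.5 and 200.9 FPKM in WT and between 47.2 and 66.4 in the knockout libraries. HAND1 and ISL1 are also in the lateral plate list below. The trophoblast genes ELF5, CGA and TP63 did not exceed 0.119 FPKM in any library. GATA2 and TFAP2C, between 6.25 and 16.3 FPKM, did not pass, and KRT7, under the filter, was at 0.334 in both WT libraries and between 0.832 and 1.18 in the knockout libraries. Of 8 intestinal markers, VIL1, an actin bundler of epithelial brush borders, rose from 2.00 and 6.67 FPKM to between 44.5 and 57.0 (adjusted p 0.00218 by limma) and LGR5 fell, so that the sum was 42.1 to 46.1 in WT and 57.3 to 77.8 in the knockout libraries. The intestinal genes CDH17 and MUC2 did not exceed 0.035 FPKM, and FABP2 and SI were listed at 0 in every library. LGALS4 did not exceed 0.704 FPKM, and GUCY2C was at 0.624 and 0.325 in WT and between 0.764 and 1.22 in the knockout libraries, both under the filter. Of 10 neural markers, 2 were tested, and OTX2 did not pass. SOX3 rose from 0.0677 and 0.221 FPKM to between 2.29 and 9.67 (adjusted p 0.00642 by limma). It passed the filter on low values through its knockout libraries, with a WT mean of 0.144 FPKM. PAX6, under the filter, went the other way, from 1.29 and 2.38 FPKM in WT to between 0.0242 and 0.184 in the knockout libraries. SOX1, NEUROG1, NEUROG2 and NEUROD1 did not exceed 0.0432 FPKM in any library. The neural sum was 81.2 to 96.1 in WT and 60.0 to 76.2 in the knockout libraries. Most of it was OTX2, at 79.6 and 93.2 FPKM in WT and between 50.2 and 73.7 in the knockout libraries.

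Among markers of other mesoderm, all 11 lateral plate and cardiac genes tested (of 14) were lower by limma, against 15.4% of all genes tested. This list too was written with results of these data known, so the count is a description. APLNR and GATA6 were the most abundant of the 11. Of the 3 genes under the filter, ISL1 was lower in all 4 within-table differences. MEF2C and TBX5 were higher in all 4 but did not exceed 0.424 FPKM in any library. The summed level of the 14 was 1437 to 1505 FPKM in WT and 571.4 to 618.5 in the knockout libraries. Endoderm markers, a list that shares GATA6 with the former, summed to 3132 to 3510 FPKM in WT and to 1431 to 2044 in the knockout libraries. This sum mainly follows CER1, which fell from 3262 and 2550 FPKM in WT to between 977 and 1797. SOX17 rose within each table, from 63.9 and 251 FPKM in WT to between 120 and 338, and its groups overlapped across tables. Of the 7 endoderm markers tested, 2 were higher and 3 lower. Of the 8 pluripotency markers, 3 were higher, POU5F1 among them, and 5 did not pass, LIN28A among them, with sums of 860.7 to 936.2 FPKM in WT and 1106 to 1378 in the knockout libraries.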

How the data were processed

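RNA-seq of 6 H1 libraries was analysed from 2 deposited tables of FPKM values per gene symbol (38100 and 58324 rows), each made by the authors with 1 library of every group. Only the second table states its unit. The labels' processing notes name BWA, Bowtie, RSEM and hg19 without roles. Per-sample columns not used numbered 0. Columns carry no replicate number. Symbols listed more than once were left out, and 37803 remained. Genes whose mean FPKM reached 1 (13909) were fitted as log2(FPKM + 1) with limma (3.58.1, R 4.3.3): a mean per group, the table as block, eBayes with trend, 2 residual degrees of freedom, two-sided, Benjamini-Hochberg over all genes tested. Such differences understate changes of low genes. With more knockout than WT libraries, a gene expressed only in knockout libraries passed the filter at a lower level than one expressed only in WT. HOXB5, HOXB7, HOXB8 and PAX6, above 1 FPKM in both WT libraries, fell under it. The block follows from separate normalization. Differences between tables correlated between groups with r of 0.616 to 0.676 across genes, which are not independent replicates. Overlapping genes come from GENCODE 29. Members and lists were chosen with earlier results of these data known. Named list genes are those called and changed by 1 or more on the log2 scale, the 3 most abundant in WT of each partner list and the 2 most abundant of each marker list, and others were named after their values were seen. Alternatives were a fit without the block, a pseudocount of 0.1 or 10, a filter at 5 FPKM or none, quantile and median-ratio scaling, no trend, knockout libraries as one group, leaving out each library and, added after seeing the data, equal library means.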

Additional observations from a re-analysis of the deposited data

How the results depend on the processing

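Without the replicate block (the table term), 1065 genes were called for both knockout groups against WT, 576 for SNAI1_KO_1 and 698 for SNAI1_KO_2, against 4348, 3327 and 3549 with it. In the lists, 3 tailbud, 2 segmentation and 1 HOX gene were then called, against 11, 16 and 2. Without the filter the counts were 2139, 1008 and 1216 genes and 6, 10 and 4 list genes, and with a mean FPKM of at least 5, 1 HOX gene. Leaving out each library gave 1728 to 2840, 962 to 2379 and 1135 to 2693 genes, the fewest for both groups without WT of the second table, and 7 to 10, 5 to 12 and 1 to 2 list genes. Fewer samples or another set of tested genes enter the fits that leave out a library or change the filter. The fit without the block has the same libraries and genes, but leaves differences between tables in the spread. The cause of these changes in count was not tested further. No gene was called between the knockout groups in any alternative run (0 in each). Of 29 list genes called, 13 kept their call on leaving out each of the 6 libraries (TBXT, SP5, FGF17, FGF8, FGF4, WNT5B, NOTUM, MESP2, JAG1, JAG2, EPHA4, SPRY2 and HOXB6), and 6 without the block (TBXT, FGF17, FGF4, MESP2, EPHA4 and HOXB6). Of the genes described, MSGN1 moved most with the pseudocount, to 3.23 at 0.1 and 0.32 at 10. CDX4, HES7 and DLL1 were fitted only in the run without the filter, at log2 differences of 0.26, 0.24 and 0.70. Of the alternatives, 5 (the block, the filters, the trend and the grouping) leave a fitted difference as it was by construction. Depth is unknown, so the precision of CDX4, HES7 and DLL1 cannot be given.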

Other observations

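Of the tailbud list, WNT5A was listed 2 times in each table and entered no comparison. Its more abundant entry was at 74.6 and 79.6 FPKM in WT, 57.1 and 59.3 in SNAI1_KO_1 and 60.9 and 55.4 in SNAI1_KO_2, the opposite side of WT to WNT5B. NKX1-1, the paralog of NKX1-2, was matched in the second table only and was listed at 0 in its 3 libraries.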
